A study of Mus musculus with 4 samples.

Results

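The cells described here were islet T cells whose T-cell receptor beta chain (TRB) was found in more than 1 of 4 single-cell receptor libraries. A TRB was taken as the same where the V segment, the J segment and the amino acid string of the CDR3, the loop that contacts the antigen peptide, were all identical. Cells entered if they were called as cells and carried exactly 1 TRB and at least 1 alpha chain (TRA) that was high-confidence, full-length and productive. Members were thus chosen by the sequences read in these libraries. Of 6804 such TRB, 120 (1.76%) were in at least 2 libraries and are called shared TRB below. They were carried by 1138 of 11035 paired cells (10.3%), out of 13345 called cells. The other 6684 TRB, in 9897 cells, are called single-library TRB.

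The libraries came from pancreatic islets of 2 pools of Tet2KO NOD mice and 2 pools of NOD mice, and each pool held the islets of 4 to 6 mice. Tet2 is an enzyme that oxidises methylcytosine in DNA. Its deletion had been bred from B6 breeders onto NOD for over 14 generations, and both genotypes share the NOD background. Islets were taken at 10 to 13 weeks, which the series' design calls age while a protocol dates them from "BTM", and NOD donors for bone marrow transplant are mentioned, so age and transplantation were not settled here. The libraries of each genotype are labelled set 1 and set 2, without saying what a set is. Pools were the replicates, and a TRB that fills several cells of a library may come from 1 mouse or from several.

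A TRB gene is assembled in the thymus from a V, a D and a J segment, with bases trimmed from the segment ends and untemplated bases added at the joins. The CDR3 spans these joins, so the same amino acid string can arise from different rearrangements, and receptors found in several individuals are called public. The NOD mouse develops autoimmune diabetes spontaneously, and its islets fill with T cells that include clones specific for insulin and for the islet protein IGRP. The TRA chain is rearranged independently of TRB, so a TRB recurring with the same TRA is a stricter match than TRB alone.

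The nucleotide sequences of a few shared TRB are printed first, because they show in what ways the same protein loop was found in separate pools. The CDR3 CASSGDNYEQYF (TRBV13-3, TRBJ2-7) was in all 4 libraries, in 23 cells, and had 5 nucleotide sequences, the most of any shared TRB. Its forms follow 5′ to 3′, with the positions that differ between forms in capitals.
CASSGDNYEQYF in Tet2KO NOD 1, 3 cells: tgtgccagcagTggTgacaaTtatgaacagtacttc
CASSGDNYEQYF in Tet2KO NOD 2, 4 cells: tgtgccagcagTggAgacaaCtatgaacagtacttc
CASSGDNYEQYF in NOD 1, 10 cells: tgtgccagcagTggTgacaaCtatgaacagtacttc
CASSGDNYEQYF in NOD 1, 2 cells: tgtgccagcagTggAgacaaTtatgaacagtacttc
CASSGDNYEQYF in NOD 2, 4 cells: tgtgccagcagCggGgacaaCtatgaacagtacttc
No form of it was in more than 1 library. In Tet2KO NOD 1, Tet2KO NOD 2 and NOD 2 every cell of it carried TRAV16N with TRAJ42 and 1 CDR3 alpha, in 3, 4 and 4 cells. In NOD 1 it came with another CDR3 alpha of the same segments in 3 cells and with TRAV5-4, TRAJ34 and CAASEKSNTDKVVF in the other cells.

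A second set shows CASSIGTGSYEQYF (TRBV19, TRBJ2-7), which was in 3 libraries in 8 cells and had 1 CDR3 alpha in all of them, of TRAV5-4 and TRAJ53. Capitals again mark the positions that differ.
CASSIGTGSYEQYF in Tet2KO NOD 1, 2 cells: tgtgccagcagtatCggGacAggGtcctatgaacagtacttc
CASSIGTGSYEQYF in Tet2KO NOD 2, 1 cell: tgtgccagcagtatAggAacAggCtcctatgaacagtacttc
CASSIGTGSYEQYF in Tet2KO NOD 2, 1 cell: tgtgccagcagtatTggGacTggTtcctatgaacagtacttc
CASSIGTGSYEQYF in Tet2KO NOD 2, 2 cells: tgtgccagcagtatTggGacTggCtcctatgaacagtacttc
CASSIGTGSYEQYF in NOD 1, 2 cells: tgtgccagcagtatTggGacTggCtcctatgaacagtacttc
The form in NOD 1 was also 1 of the 3 forms in Tet2KO NOD 2. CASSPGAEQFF (TRBV15, TRBJ2-1) likewise kept 1 TRA protein, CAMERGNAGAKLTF of TRAV13-4-DV7 and TRAJ39, in all 31 cells and 3 libraries, over 4 nucleotide sequences of TRB.
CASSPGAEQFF in Tet2KO NOD 2, 2 cells: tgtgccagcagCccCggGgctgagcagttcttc
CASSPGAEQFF in Tet2KO NOD 2, 2 cells: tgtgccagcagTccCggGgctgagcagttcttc
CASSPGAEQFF in NOD 1, 25 cells: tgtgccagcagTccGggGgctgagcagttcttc
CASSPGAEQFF in NOD 2, 2 cells: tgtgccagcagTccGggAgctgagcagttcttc

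The last set marks in capitals the bases matched by neither the germline V nor the germline J end, called inserted bases here and counting D bases. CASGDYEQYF, under the joined name TRBV12-2+TRBV13-2 with TRBJ2-7, was the other TRB found in all 4 libraries, and 2 of its 3 forms could be read from V and J alone. A TRB of TRBV31 with TRBJ2-1, 16 amino acids long, stands at the other end, with 17 inserted bases and the same nucleotides in both of its libraries.
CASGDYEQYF in Tet2KO NOD 1, Tet2KO NOD 2 and NOD 1, 22 cells: tgtgccagcggtgactatgaacagtacttc
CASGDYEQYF in Tet2KO NOD 2, NOD 1 and NOD 2, 23 cells: tgtgccagcggtgattatgaacagtacttc
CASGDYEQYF in NOD 1 and NOD 2, 14 cells: tgtgccagcggGGActatgaacagtacttc
TRBV31 with TRBJ2-1 in Tet2KO NOD 2 and NOD 2, 42 cells: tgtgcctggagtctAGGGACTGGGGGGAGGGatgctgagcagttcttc

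The libraries held 1957 and 1664 called cells from Tet2KO NOD islets, against 6835 and 2889 from NOD islets, with 85137263 to 220516119 contig reads per library. The tables listed 234 TRG or TRD contigs in called cells, 0 of them productive, and 0 immunoglobulin contigs. The rule requires TRB and TRA, so these counts do not check the cell type. Shared TRB had more UMIs, the counted RNA molecules, per cell than single-library TRB: the medians were 12 and 16 in Tet2KO NOD 1 and 2 and 16 and 22 in NOD 1 and 2, against 9, 11, 10 and 12.5 in the same libraries. Intervals and limits given below cover counting error only.

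Libraries also shared cell barcodes. Of the called barcodes, 81 were called in more than 1 library, 8 cells with a shared TRB and 124 cells with a single-library TRB carried such a barcode, and 1 pair of cells had the same barcode and the same TRB in both libraries. More widely, 353 of 1138 cells with a shared TRB (31.0%) and 2129 of 9897 with a single-library TRB (21.5%) had their own barcode and TRB nucleotides also in a contig of another library. Those contigs had a median of 61 reads, against 40232 for the cell's own contig, and had more reads than it for 1 cell with a shared TRB and for 0 of the others. Leaving out barcodes called in another library left 117 of the 120 shared TRB. Leaving out all cells with such a contig kept 8553 of the 11035 paired cells, in which 80 shared TRB remained.

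Most shared TRB were seen in few cells and few libraries. In all, 106 were in 2 libraries, 12 in 3 and 2 in 4. By genotype, 4 were in the Tet2KO NOD libraries alone, 28 in the NOD libraries alone and 88 in both. The median shared TRB had 4 cells, and 43 had 1 cell in each of exactly 2 libraries, which is just inside the rule. Just outside it, 118 single-library TRB had a CDR3 beta found in another library under another V or J name, and 898 (13.4%) differed by 1 amino acid from a TRB of another library with the same V and J. At the large end, 39 shared TRB had at least 2 cells in at least 2 libraries, and the 10 with the most cells held 497 cells (43.7% of all cells with a shared TRB).

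The V and J names were part of the rule, so segment use is described with no test. TRBV19 and TRBV13-1 were the most used V segments, each in 15 of the 120 shared TRB (12.5%), against 8.39% and 8.44% of single-library TRB. TRBV15 made up 10.0% of shared TRB against 4.83%, TRBV5 10.0% against 10.4%, TRBV16 9.17% against 6.78%, and TRBV1 6.67% against 6.69%. The share of TRBV15 was above that of single-library TRB in all 4 libraries, at 8.33% and 13.0% in Tet2KO NOD and 6.90% and 14.9% in NOD, against 6.61%, 4.68%, 4.45% and 4.81% of single-library TRB in the same order. TRBV19 was also higher in 4 of 4 libraries. The joined name TRBV12-2+TRBV13-2, the most used name among single-library TRB at 11.6%, was in 5.83% of shared TRB and lower in 4 of 4 libraries. A TRB under the joined name in 1 library and under TRBV13-2 in another does not match by the rule, which lowers this share. With the joined name merged into TRBV13-2, a step added after seeing the data, 126 TRB were shared instead of 120. Segment shares were not compared under that setting.

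Among J segments, TRBJ2-7 was in 36 shared TRB (30.0%), against 19.9% of single-library TRB. TRBJ2-5 was in 15.8% against 12.4%, TRBJ1-1 in 10.8% against 9.25% and TRBJ2-1 in 8.33% against 10.2%. The TRBJ2 cluster as a whole held 86 of the 120 shared TRB and TRBJ1 the other 34. Of the 310 paired clonotypes with a shared TRB, 73.5% used the TRBJ2 cluster, against 66.7% of 6869 with a single-library TRB, where a clonotype is 1 combination of V, J and CDR3 nucleotides of both chains within a library. The share was higher in 3 of 4 libraries, while in NOD 2 it was 67.5% against 68.7%. Counted by cells it was 66.0% against 67.4%. The TRBV13 family took 26.5% of the clonotypes of shared TRB and 28.2% of the others. TRBV15 with TRBJ2-7 was the most frequent combination, in 5 shared TRB, 4.17% against 1.48% of single-library TRB.

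CDR3 beta loops of shared TRB were shorter in each library. Mean length was 13.48 and 13.76 amino acids in Tet2KO NOD 1 and 2 and 13.56 and 13.54 in NOD 1 and 2, against 14.00, 14.04, 14.01 and 14.04 for single-library TRB of the same libraries. The difference averaged -0.441 ± 0.108 amino acids (SD, n = 4 libraries). It had the same sign in all 4, and the exact two-sided sign-flip permutation test gave p = 0.125, the smallest that 4 libraries allow, so this test could not pass 0.05 for any measure. A shared TRB by definition stands in at least 2 libraries, so the 4 differences are also not independent. Single-library TRB ranged from 6 to 21 amino acids, and shared TRB in 2 libraries from 10 to 16. Mean length was 14.02 for TRB in 1 library, 13.74 in 2, 13.25 in 3 and 11 in 4, where the last is the mean of 2 TRB.

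**Figure D1:**
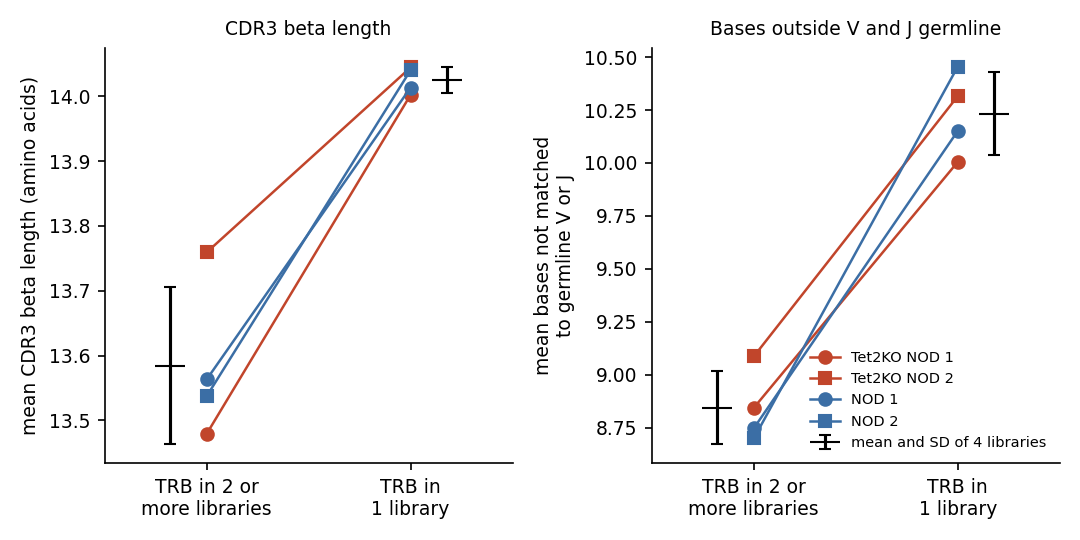
Mean CDR3 beta length in amino acids (left) and mean number of CDR3 beta bases matched by neither germline V nor germline J (right), for TRB in 2 or more libraries and TRB in 1 library; each line joins the 2 values of a library and the black bars are the mean and SD of 4 libraries. All 8 lines climb, from 13.48 to 13.76 amino acids for shared TRB against 14.00 to 14.04 for single-library TRB, and from 8.70 to 9.09 bases against 10.0 to 10.5 bases.

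The shorter loops went with fewer bases outside the germline V and J ends. Shared TRB had 8.84 and 9.09 inserted bases in Tet2KO NOD 1 and 2 and 8.75 and 8.70 in NOD 1 and 2, against 10.01, 10.3, 10.2 and 10.5 for single-library TRB. The difference averaged -1.39 ± 0.266 bases (SD, n = 4 libraries, exact sign-flip permutation p = 0.125), lower in 4 of 4 libraries. After the longest exact match to a germline D segment was also taken off, a step added after seeing the data, 2.47 ± 0.264 bases were left in shared TRB and 3.66 ± 0.0658 in single-library TRB (SD, n = 4 libraries). Of the germline parts that were kept, the V part was 13.8 bases against 13.7, a difference of 0.0982 ± 0.122, and the J part 18.1 in both, a difference of -0.0402 ± 0.277 (SD, n = 4 libraries). When only TRB of 1 cell were compared, also added after seeing the data, the difference was -1.57 ± 0.545 bases and -0.405 ± 0.252 amino acids (SD, n = 4 libraries).

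TRB with hardly any inserted bases were the minority among shared TRB as well. Those with 3 or fewer inserted bases made up 6.25% and 3.70% of shared TRB in Tet2KO NOD 1 and 2 and 8.05% and 10.4% in NOD 1 and 2, against 5.15%, 3.12%, 3.85% and 3.00% of single-library TRB. The excess was 3.33 ± 3.18 percentage points (SD, n = 4 libraries, exact sign-flip permutation p = 0.125), positive in 4 of 4 libraries but small in both Tet2KO NOD libraries. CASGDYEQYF, printed above with 0 to 3 inserted bases, lies in this group, while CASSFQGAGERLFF of TRBV16, the shared TRB with the most cells, had 12 and 13 inserted bases in its 2 forms.

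Over all libraries, 81 of the 120 shared TRB (67.5%) had at least 2 nucleotide sequences, against 30 of 6684 single-library TRB (0.449%). A single-library TRB has only 1 library in which to show a second form, so the comparison within a library is the fairer one. There, 4.17% and 13.0% of shared TRB in Tet2KO NOD 1 and 2 and 8.05% and 8.96% in NOD 1 and 2 had at least 2 nucleotide sequences, against 0.490%, 0.446%, 0.472% and 0.380% of single-library TRB. The difference was 8.09 ± 3.63 percentage points (SD, n = 4 libraries, exact sign-flip permutation p = 0.125), higher in 4 of 4 libraries, and rested on 2, 7, 7 and 6 shared TRB. A TRB of 1 cell cannot show 2 forms. Among TRB of 2 or more cells in the library the shares were 17.6% ± 6.85 of shared and 3.08% ± 0.392 of single-library TRB (SD, n = 4 libraries). These TRB still differed in size. In NOD 1, 14 of 45 shared and 38 of 460 single-library TRB had 10 or more cells, and in NOD 2 7 of 29 and 12 of 208. In Tet2KO NOD 1 it was 4 of 22 and 16 of 152, and in Tet2KO NOD 2 0 of 28 and 9 of 120. More cells give more chances of a second form, and this was not adjusted for.

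Shared TRB had more cells. In Tet2KO NOD 1 and 2, 45.8% and 51.9% of shared TRB had 2 or more cells in the library, and 51.7% and 43.3% had them in NOD 1 and 2, against 18.6%, 13.4%, 13.6% and 13.2% of single-library TRB. The ranges of shared and single-library TRB did not overlap, and the difference was 33.5 ± 5.69 percentage points (SD, n = 4 libraries, exact sign-flip permutation p = 0.125). The mean number of cells per TRB was 2.75 and 2.48 in Tet2KO NOD and 6.84 and 4.13 in NOD, against 1.80, 1.40, 1.47 and 1.39 for single-library TRB. The value of NOD 1 includes the 149 cells of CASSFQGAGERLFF, without which it was 5.19. The cells of a TRB need not be 1 clone. Among TRB of 2 or more cells in a library, 24.7% of shared and 16.1% of single-library TRB had 2 or more TRA. The difference was 8.56 ± 3.42 percentage points (SD, n = 4 libraries, exact sign-flip permutation p = 0.125). Each cell entered with its TRA of most UMIs, so 1 clone whose cells carry 2 TRA can also show 2. In NOD 1, 106 of the 149 cells of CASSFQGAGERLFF carried 2 or more TRA. These shares therefore do not count clones. Without the cells whose barcode and TRB also stood in another library, the difference in the share with 2 or more cells was 30.2 percentage points, that in length -0.299 amino acids and that in inserted bases -1.38.

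**Figure D2:**
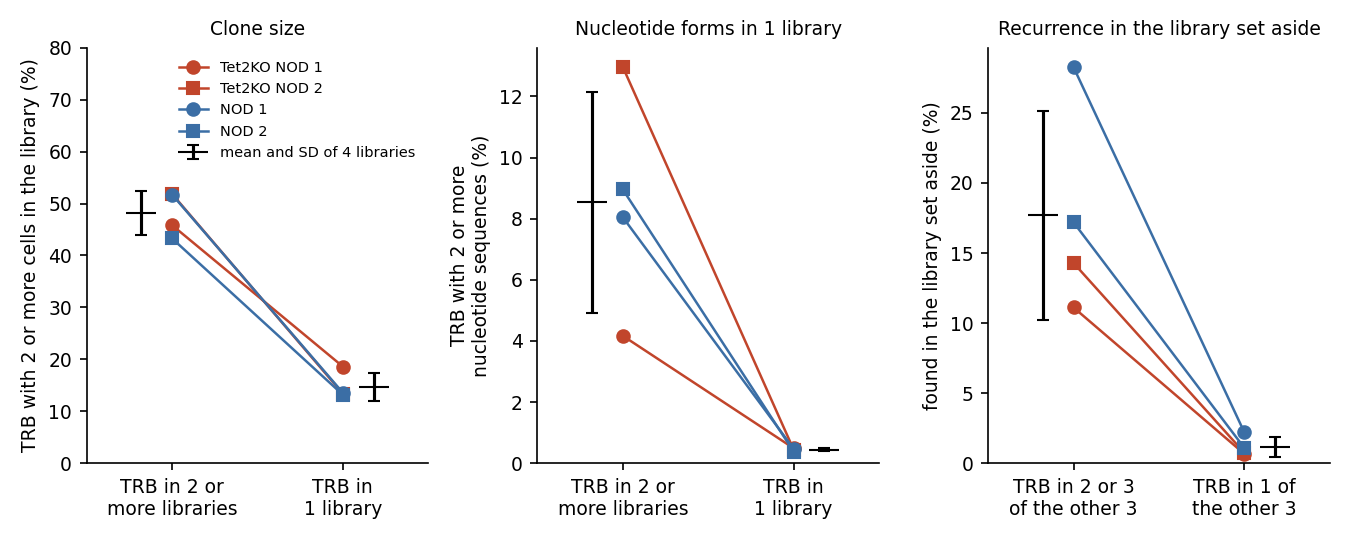
Share of TRB with 2 or more cells in a library (left), share with 2 or more CDR3 beta nucleotide sequences in a library (middle) and share found in the library set aside (right), in percent; each line is a library and the black bars are the mean and SD of 4 libraries. In all 3 panels each library has its higher value on the left, from 43.3% to 51.9% against 13.2% to 18.6% for the share with 2 or more cells and from 11.1% to 28.3% against 0.660% to 2.20% for recurrence.

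Whether sharing carries over to a library that took no part in choosing the TRB was asked by setting each library aside in turn. Of the TRB already in at least 2 of the other 3 libraries, 9 of 81 were found in Tet2KO NOD 1 (11.1%, Wilson 95% interval 5.96% to 19.8%) and 11 of 77 in Tet2KO NOD 2 (14.3%, 8.17% to 23.8%). In NOD 1 it was 13 of 46 (28.3%, 17.3% to 42.5%) and in NOD 2 11 of 64 (17.2%, 9.88% to 28.2%). Of TRB in 1 of the other 3, 0.660% and 0.738% were found in Tet2KO NOD 1 and 2 and 2.20% and 1.09% in NOD 1 and 2. The mean was 17.7% against 1.17%, a difference of 16.5 ± 6.76 percentage points (SD, n = 4 libraries, exact sign-flip permutation p = 0.125), with every library on the same side. The 4 differences are not independent. All recurring TRB of the first kind are the 12 in 3 libraries and the 2 in 4, each counted again in every library that holds it. Without the cells whose barcode and TRB stood in another library, the difference was 11.7 percentage points.

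The next comparison asked which pairs of libraries shared TRB. The 6 pairs gave 154 combinations of a shared TRB with a pair of libraries that both hold it. Tet2KO NOD 1 and NOD 1, both labelled set 1, shared 38 TRB, which is 12.6 per 1000000 pairs of their distinct TRB, the unit of sharing used below. Tet2KO NOD 2 and NOD 2, both labelled set 2, shared 31, or 19.8. The pairs that differed in set and in genotype shared 11 and 26, or 7.73 and 7.86. The Tet2KO NOD pair shared 10 (12.2) and the NOD pair 38 (6.64). Sharing was thus 9.40 within genotypes against 12.0 between them (exact permutation over the 3 ways to pair 4 libraries, p = 1). By set label it was 16.2 within sets against 8.60 between (exact permutation p = 0.333, the smallest of 3 splits). Neither direction held under every alternative. The difference within minus between sets, 7.62, was -10.3 with each cell counted once and 2.62 without NOD 2, and it was 6.41 without the cells whose barcode and TRB stood in another library. The difference within minus between genotypes, -2.61, was 9.86, 1.91 and -0.928 under the same settings. Without Tet2KO NOD 1 these differences were 12.6 by set and -7.19 by genotype, and without paired clonotypes found in over 1 library 2.24 and -0.0465.

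What else was identical divided the 154 combinations. In 36 (23.4%) the nucleotides of both chains were the same in both libraries. In 43 (27.9%) the TRA had the same segments and CDR3 alpha amino acids, but at least 1 chain differed in nucleotides. In 19 (12.3%) the TRB nucleotides were the same and no TRA was, and in 56 (36.4%) neither was. Of the 36 combinations identical in both chains, 29 were between the 2 libraries of a set, which is 6.96 within sets against 0.630 between. All other shared TRB together were at 9.25 within sets and 7.97 between (n = 2 and 4 pairs of libraries, exact permutation p = 0.667). Without the cells whose barcode and TRB also stood in another library, 20 identical combinations remained, 16 of them within sets. Without barcodes called in another library, 35 remained, 28 of them within sets. What a set stands for in the experiment, such as a shared day or run, is not stated and its part in these values was not tested.

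**Figure D3:**
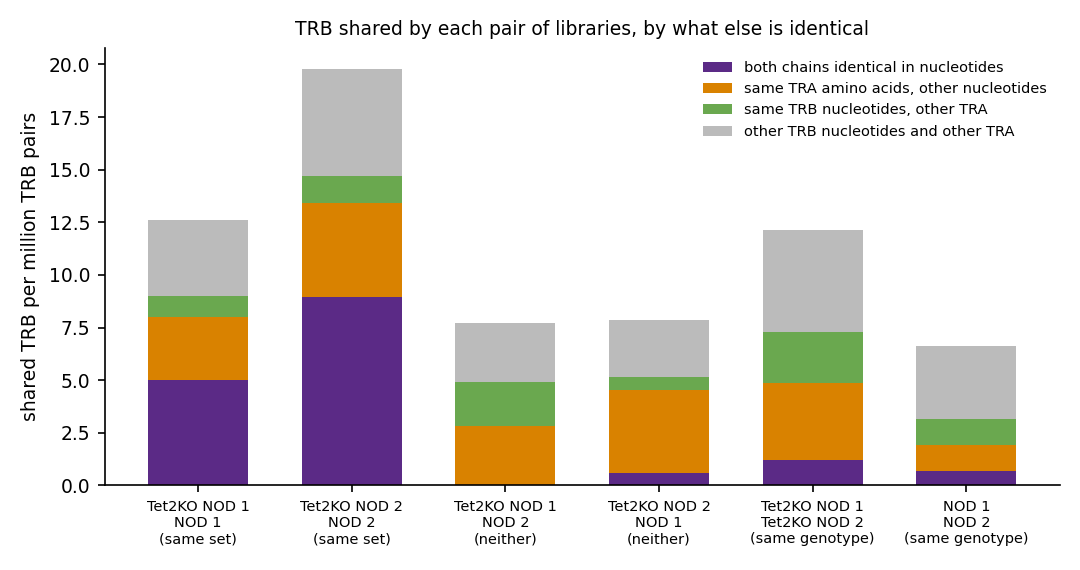
TRB shared by each of the 6 pairs of libraries, per 1000000 pairs of their distinct TRB, stacked by whether the nucleotides of both chains, the TRA amino acids or the TRB nucleotides were also the same. The purple part, identical in both chains, is 4.99 and 8.94 in the 2 pairs of the same set and 0 to 1.22 in the other 4.

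The clonotypes identical in both chains were often unequal in size between the 2 libraries. The largest, the TRBV31 receptor printed above with TRAV3-1 and TRAJ52, had 1 cell in Tet2KO NOD 2 and 41 in NOD 2. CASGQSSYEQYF (TRBV13-3) with TRAV16N and TRAJ42 had 2 cells in Tet2KO NOD 2 and 22 in NOD 2. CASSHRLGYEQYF (TRBV16) had 1 cell in Tet2KO NOD 1 and 22 in NOD 1, and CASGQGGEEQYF (TRBV13-1) 1 and 21 in the same libraries. The exception among the 5 largest was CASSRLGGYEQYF (TRBV16) with TRAV2 and TRAJ7, at 13 cells in Tet2KO NOD 1 and 7 in NOD 1. All 5 lay between the 2 libraries of a set. They had 8 to 17 inserted bases.

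TRA was not used by the rule, and it recurred with the TRB. In 79 of the 154 combinations (51.3%, Wilson 95% interval 43.5% to 59.1%) the 2 libraries held at least 1 TRA with the same TRAV, TRAJ and CDR3 alpha amino acids. Combinations of 1 TRB in 3 or 4 libraries overlap, so the interval is too narrow. When every productive TRA of a cell counted, a choice added after seeing the data, it was 53.9%. It was 36.5% with a TRB defined by CDR3 amino acids alone, 67.2% with nucleotides and 35.8% without paired clonotypes found in over 1 library. In 18 of the 79 both chains differed in nucleotides while both proteins were the same. In 37 the TRB nucleotides differed, and in 24 the TRA nucleotides did. Averaged over every TRA pair of a combination, TRAV was the same in 63.3%, TRAJ in 62.3% and the whole TRA in 44.8%. For different TRB of 2 libraries with the same V and J segments these were 3.39%, 3.48% and 0.175%, and for different TRB of any segments 2.74%, 2.98% and 0.00588%. Leaving out the 36 combinations identical in both chains, TRAV was still the same in 54.9%, TRAJ in 54.4% and the TRA in 31.6%. These shares are described with no test, since combinations share TRB and libraries.

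The share with the same TRA differed with the number of cells per TRB. Where the TRB had 1 cell in both libraries it was 40.0% (18 of 45), with 2 or more cells in 1 library 47.2% (25 of 53), and with 2 or more in both 64.3% (36 of 56). TRB of more cells offer more TRA to match, and this was not adjusted for. Over all libraries, 64 combinations of a TRB and a TRA protein were in at least 2 libraries, 58 of them in 2, 5 in 3 and 1 in 4, in 608 cells together. Of the 64, 35 had more than 1 nucleotide form.

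The TRB and TRA protein pair in all 4 libraries was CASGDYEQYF with 1 CDR3 alpha of TRAV6D-6 and TRAJ45. It had 1 and 4 cells in Tet2KO NOD 1 and 2 and 39 and 12 in NOD 1 and 2, with 3 TRB and 3 TRA nucleotide sequences. The other 3 cells of that TRB, in Tet2KO NOD 2, carried TRAV4-2 with TRAJ23. The same CDR3 beta and the same TRA were also found under the name TRBV13-2 in 3 cells of NOD 1 and 1 of NOD 2, which the rule counts as another shared TRB. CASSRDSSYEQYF (TRBV15, TRBJ2-7) had 8 cells in Tet2KO NOD 2, 3 in NOD 1 and 6 in NOD 2, and all 17 carried TRAV16N, TRAJ23 and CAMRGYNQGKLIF, over 7 clonotypes. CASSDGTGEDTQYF (TRBV13-1, TRBJ2-5), with 1 cell in Tet2KO NOD 2 and 5 in NOD 2, had 4 TRB nucleotide sequences and 1 TRA protein, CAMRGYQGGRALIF of TRAV16N and TRAJ15.

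Other shared TRB had more than 1 TRA, and some had different TRA in each library. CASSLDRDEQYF (TRBV15, TRBJ2-7) had TRAV1 with TRAJ30 in its 1 cell of Tet2KO NOD 1, TRAV4-3 with TRAJ49 in 2 cells of NOD 1, and TRAV6-4 with TRAJ7 in 16 of 17 cells of NOD 2. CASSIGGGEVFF (TRBV19, TRBJ1-1) had 37 cells in NOD 1 and 36 in NOD 2, and CDR3 alpha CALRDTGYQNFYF in 9 cells of NOD 1 against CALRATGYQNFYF in all 36 of NOD 2, both of TRAV12N-2 and TRAJ49. The other 28 cells of NOD 1 carried TRAV13N-3 with TRAJ47. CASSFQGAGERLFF, the shared TRB with the most cells, had 4 in Tet2KO NOD 2 and 149 in NOD 1, with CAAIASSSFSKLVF of TRAV5-4 and TRAJ50 as the TRA of most UMIs in 4 and 73 of them. A TRB of TRBV19 with TRBJ2-5, 15 amino acids long, had 1 cell in Tet2KO NOD 1 and 38 in NOD 1, where 20 carried TRAV9-1 with TRAJ56 and 18 the TRAV9-1 and TRAJ53 chain of the cell in Tet2KO NOD 1. The other 76 cells of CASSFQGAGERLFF in NOD 1 had TRAV18 with TRAJ44, and 106 of the 149 cells there carried 2 or more TRA. Cells with 2 or more TRA made up 4.55% and 8.21% of cells with a shared TRB in Tet2KO NOD 1 and 2, and 33.1% and 10.8% in NOD 1 and 2. Without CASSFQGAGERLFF the value of NOD 1 was 20.4%. Among cells with a single-library TRB the same libraries had 11.1%, 11.1%, 10.0% and 13.1%.

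TRBV1 gave a family of near-identical loops. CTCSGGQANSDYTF had 2 cells in Tet2KO NOD 1, 5 in Tet2KO NOD 2 and 7 in NOD 2, and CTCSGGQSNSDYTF had 2 in Tet2KO NOD 2, 1 in NOD 1 and 3 in NOD 2, both with TRBJ1-2. Of these 20 cells, 15 carried TRAV5N-4 with TRAJ6 or TRAJ56 and the other 5 TRAV5-4 with TRAJ56. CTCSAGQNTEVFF (TRBV1, TRBJ1-1) had 1 cell in Tet2KO NOD 1, 3 in NOD 1 and 1 in NOD 2, and 4 of the 5 carried TRAV21-DV12 with TRAJ53. A neighbour 1 amino acid away with the same V and J in the same library was found for 8.33% and 16.7% of shared TRB in Tet2KO NOD 1 and 2, and for 31.0% and 14.9% in NOD 1 and 2. For single-library TRB it was 4.65%, 2.23%, 9.67% and 5.07%. The difference was 12.3 ± 7.46 percentage points (SD, n = 4 libraries, exact sign-flip permutation p = 0.125), higher in 4 of 4 libraries.

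The remaining TRB of 3 libraries were smaller. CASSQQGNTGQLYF (TRBV5, TRBJ2-2) had 2 and 1 cells in Tet2KO NOD 1 and 2 and 6 in NOD 1, with 1 TRB nucleotide sequence and TRAV5-4 with TRAJ45 in all 9 cells, under 2 CDR3 alpha strings. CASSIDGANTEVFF (TRBV19, TRBJ1-1) had 2 cells in Tet2KO NOD 2, 5 in NOD 1 and 1 in NOD 2, all with TRAV5N-4 and TRAJ13. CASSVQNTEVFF (TRBV13-1, TRBJ1-1) had 6 cells with 3 TRA. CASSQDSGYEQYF (TRBV5, TRBJ2-7) had 4 cells, each with its own TRB nucleotide sequence, and 3 of them carried 1 CDR3 alpha of TRAV4-2 and TRAJ30.

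TRA segment use was compared over clonotypes, 310 with a shared TRB and 6869 with a single-library TRB, by edgeR's quasi-likelihood test with library as a term. Of 76 TRAV and TRAJ segments tested, 3 (3.95%) passed a Benjamini-Hochberg adjusted p of 0.05, 2 (2.63%) higher with shared TRB and 1 (1.32%) lower, and 18 had an unadjusted p under 0.05. TRAV5N-4 made up 11.3% and 10.0% of the clonotypes of shared TRB in Tet2KO NOD 1 and 2 and 5.61% and 7.50% in NOD 1 and 2, against 2.96%, 3.47%, 2.61% and 2.42% with single-library TRB. The groups did not overlap, and the log2 fold change was 1.51 ± 0.34 (SE, edgeR adjusted p = 0.00144). A clonotype of a TRB in several libraries was counted in each, and a TRB with several nucleotide forms gave several clonotypes. The counts are thus not independent, and the SE and adjusted p of this test are likely too small for every segment. Without paired clonotypes found in over 1 library no segment passed, 13 had an unadjusted p under 0.05, and TRAV5N-4 had a log2 fold change of 1.36 (edgeR adjusted p = 0.0712). Without the cells whose barcode and TRB stood in another library it had 0.97 (edgeR adjusted p = 0.239), and without Tet2KO NOD 1 it had 1.30 (edgeR adjusted p = 0.0650).

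The 25 clonotypes with TRAV5N-4 belonged to 14 shared TRB with 20 TRA proteins. Counting each TRB once, 11.7% of shared TRB and 2.80% of single-library TRB had it, though a TRB with more clonotypes has more chances to do so. They used 8 TRBV names, and TRBV5, with 4 TRB, was the most frequent. TRAJ53 made up 11.3% and 8.57% of the clonotypes of shared TRB in Tet2KO NOD 1 and 2 and 7.48% and 3.75% in NOD 1 and 2, against 2.96%, 2.93%, 2.72% and 2.91%. Its log2 fold change was 1.37 ± 0.35 (SE, edgeR adjusted p = 0.00551), and 1.23 without paired clonotypes of over 1 library (edgeR adjusted p = 0.103). Leaving out Tet2KO NOD 1 gave an edgeR adjusted p of 0.0650 for TRAJ53, and leaving out NOD 1 gave 0.216. Of its 23 clonotypes, in 9 shared TRB, 14 paired TRAJ53 with TRAV5-4. TRAV14N-1 was in 0 of 310 clonotypes of shared TRB, which allows up to 0.968%, against 132 of 6869 (1.92%), so it was at least 1.99-fold lower with the limit of 3 counts taken over all 310 (edgeR adjusted p = 0.0481). This call was lost under 12 of 18 alternatives, with adjusted p from 0.0205 to 0.371 over all 18. The log2 fold change of TRAV14N-1 was -7.12, but -2.56 with the joined V name merged and -1.45 with CDR3 amino acids alone. Other segments were also at 0 with shared TRB, among them TRAV7D-4 against a mean of 1.85% over libraries, TRAJ33 against 1.67% and TRAV13-2 against 1.53%. They did not pass (edgeR adjusted p = 0.0546, 0.0546 and 0.0697).

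**Figure D4:**
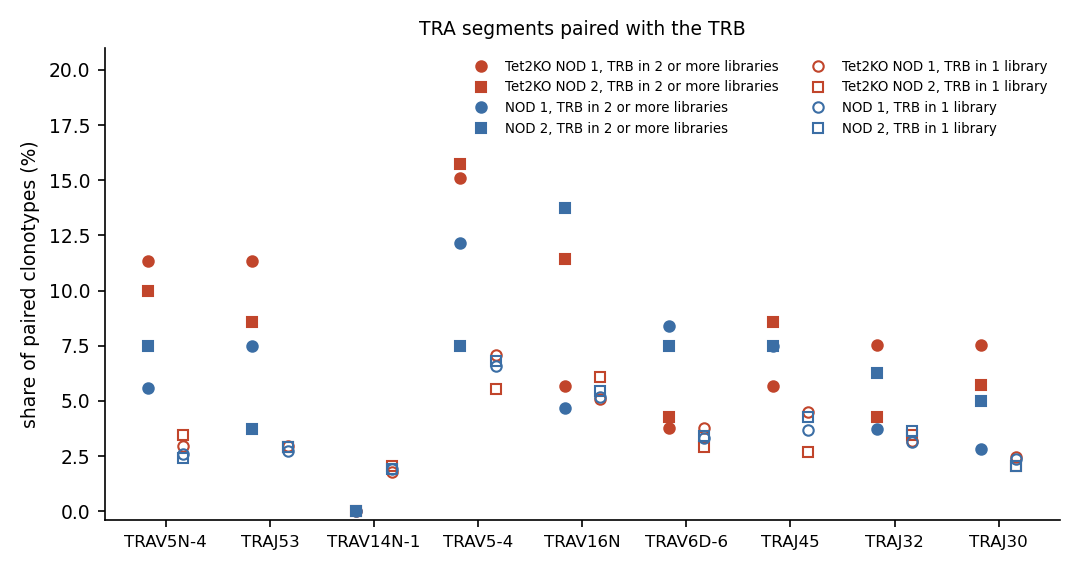
Share of paired clonotypes, in percent, with each of 9 TRA segments, for shared TRB (filled, left of each tick) and single-library TRB (open, right of each tick); each symbol is a library. TRAV5N-4 is at 5.61% to 11.3% for shared TRB against 2.42% to 3.47%, and TRAV14N-1 is at 0 against 1.77% to 2.06%.

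Of the other most used TRA segments of shared TRB, none passed that test, though TRAJ45 passed it in 6 and TRAV5-4 in 5 of 18 alternatives. TRAV5-4 made up 12.6% ± 3.75 of clonotypes of shared TRB and 6.50% ± 0.685 of the others (SD, n = 4 libraries, edgeR adjusted p = 0.0697). TRAV16N was at 8.88% ± 4.41 against 5.45% ± 0.441 (SD, n = 4 libraries, edgeR adjusted p = 0.220), and TRAV6D-6 at 5.99% ± 2.31 against 3.36% ± 0.352 (edgeR adjusted p = 0.0697). Among J segments, TRAJ45 was at 7.30% ± 1.21 against 3.79% ± 0.799 (edgeR adjusted p = 0.0697), TRAJ32 at 5.46% ± 1.76 against 3.37% ± 0.238 (edgeR adjusted p = 0.371) and TRAJ30 at 5.27% ± 1.96 against 2.24% ± 0.223 (edgeR adjusted p = 0.0890). The values of TRAV6D-6 and TRAJ45 are not separate. Of the 20 and 23 clonotypes of shared TRB with these segments, 14 carried both, with 1 TRA protein and 2 TRB names, those of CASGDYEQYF. Without NOD 1, TRAV16N had a log2 fold change of 1.56 (edgeR adjusted p = 0.0108), and without NOD 2 it had 0.28 (edgeR adjusted p = 0.865). TRAV6D-6 passed without Tet2KO NOD 2 (edgeR adjusted p = 0.0337), and TRAJ30 without the cells whose barcode and TRB stood in another library, with 1.66 (edgeR adjusted p = 0.0153). CDR3 alpha length of the partners was 13.9 and 13.5 amino acids in Tet2KO NOD 1 and 2 and 13.7 and 13.6 in NOD 1 and 2, against 13.6, 13.6, 13.6 and 13.7 with single-library TRB. The difference of 0.0313 ± 0.154 amino acids was less than its spread (SD, n = 4 libraries, exact sign-flip permutation p = 0.875), and it was 0.0785 without the cells whose barcode and TRB stood in another library.

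Receptor classes known from the literature were looked up by their TRA segments. In NOD mice, TRAV5 family chains with TRAJ53 are known from insulin-specific T cells, and TRAV16 with TRAJ42 from IGRP-specific CD8 T cells; specificity was not measured here. The TRAV5 family with TRAJ53 or TRAJ42 made up 14 of the 310 clonotypes of shared TRB (4.52%) and 53 of 6869 of the others (0.772%), and all 14 were TRAV5-4 with TRAJ53. Counted by cells the shares were 6.24% against 0.808%. They belonged to 4 TRB, all of TRBV19 with TRBJ2-7, in 6 and 8 cells of Tet2KO NOD 1 and 2 and 55 and 2 cells of NOD 1 and 2. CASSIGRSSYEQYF had 4 such cells in Tet2KO NOD 1 and 25 in NOD 1, a TRB of 15 amino acids had 2 in Tet2KO NOD 2, 15 in NOD 1 and 2 in NOD 2, and another of that length had 2 in Tet2KO NOD 2 and 13 in NOD 1. The fourth was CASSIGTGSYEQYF, whose nucleotides stand above. Their CDR3 alpha strings differed within the loop, and 1 string, that of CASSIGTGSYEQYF, stood beside all 4 TRB. These lists were chosen with earlier results known and are counted with no test.

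TRAV16 with TRAJ42 was found in 8 clonotypes of shared TRB (2.58%) and 49 of the others (0.713%). The 8 belonged to 3 TRB, all of TRBV13-3 with TRBJ2-7, in 3 and 7 cells of Tet2KO NOD 1 and 2 and 3 and 26 cells of NOD 1 and 2. Counted by cells the shares were 3.43% against 2.60%, and in NOD 1 the order was the opposite, 0.504% of cells with a shared TRB against 3.18%. The TRB were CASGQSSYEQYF, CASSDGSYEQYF and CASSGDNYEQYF. Invariant NKT-type chains, TRAV11 family with TRAJ18, were in 0 of 310 clonotypes of shared TRB against 24 of 6869 (0.349%), and MAIT-type chains, TRAV1 with TRAJ33, in 0 against 5 (0.0728%). A count of 0 of 310 allows up to 0.968%, so a difference was not detectable at this number of clonotypes.

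Between genotypes, the share of TRB that were shared was 5.55% and 5.68% in Tet2KO NOD 1 and 2, against 2.50% and 4.07% in NOD 1 and 2. The groups did not overlap, with a difference of 2.33 percentage points between means of 5.61% ± 0.0913 and 3.29% ± 1.11 (SD, n = 2 pools; exact permutation over 6 assignments, p = 0.333, the smallest they can give). This share depends on the number of cells, since a smaller library is set against larger ones. At 1392 cells in each library, Tet2KO NOD pools had 3.66% and 4.21% and NOD pools 3.72% and 3.74%, a difference of 0.206 percentage points with overlapping groups (exact permutation p = 1, n = 2). At equal cell numbers the difference was thus far smaller, and it was -0.0619 percentage points within set 1 and 0.474 within set 2.

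The share of cells with a shared TRB ran the other way. It was 8.23% (Wilson 95% interval 6.98% to 9.68%) and 9.63% (8.19% to 11.3%) in Tet2KO NOD 1 and 2, against 10.7% (9.91% to 11.5%) and 11.2% (10.0% to 12.5%) in NOD 1 and 2. The difference was -2.01 percentage points (n = 2, exact permutation p = 0.333), and -3.53 at 1392 cells per library. Without the cells whose barcode and TRB stood in another library it was -1.20. With members defined again without Tet2KO NOD 2 it was 0.476, and with a TRB defined by CDR3 amino acids alone it was 1.68. Of the 595 cells with a shared TRB in NOD 1, 149 carried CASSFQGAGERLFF. The difference in the share of cells was not recomputed without that TRB, so it may rest in part on 1 TRB of NOD 1. CDR3 beta length of shared TRB was 13.62 ± 0.198 amino acids in Tet2KO NOD and 13.55 ± 0.0183 in NOD (SD, n = 2, exact permutation p = 1). The share of shared TRB with 2 or more cells was 48.8% ± 4.26 in Tet2KO NOD and 47.5% ± 5.97 in NOD (SD, n = 2, exact permutation p = 0.667), and the difference was -8.68 percentage points without the cells whose barcode and TRB stood in another library. In all paired cells, neither measure separated the genotypes beyond the spread between pools.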

How the data were processed

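The deposited tables list, per the file headers, counts of reads and UMIs for each assembled contig beside its segments and CDR3. The submitters' processing notes name Cell Ranger 7.0.1 and GRCm38 (mm10). Which V(D)J segment set was used is not given there, so near-identical TRAV copies (D and N names) and the joined name TRBV12-2+TRBV13-2 are uncertain. Contig length, deposited by the authors, was not used. Columns of other samples numbered 0.

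Where a cell had several TRA, the one of most UMIs was used. Doublets were treated only by dropping cells that carried several TRB. Germline V and J ends were read from chromosome 6 of GRCm38 (GENCODE annotation) and matched exactly from each end of the CDR3 nucleotides. An end was found for 21 of 22 V names, covering 96.5% of paired cells and all shared TRB. Only exact matches counted as germline, so a NOD allele that differs adds inserted bases in both classes.

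Measures were averaged over distinct TRB within each library, and the 4 differences were tested by an exact sign-flip permutation. Genotypes were compared over 6 assignments of 2 against 2. TRA segments with a total of at least 60 clonotypes were tested with edgeR 4.0.16 (R 4.3.3), library size being the number of clonotypes. The script was tested on simulated data with 20 of 76 segments raised. It recovered 17% of 2-fold, 73.3% of 3-fold and 94% of 4-fold changes. A segment that did not pass can therefore still differ 2-fold or more. The simulated counts were independent between libraries and segments were only raised. These rates may thus not hold for TRB counted in several libraries or for segments that are lower. DESeq2 1.42.0, other definitions of a TRB, other filters on cells and leaving out each library were alternatives. Values at 1392 cells per library are expected values under thinning. Python 3.11.15, pandas 2.3.3 and scipy 1.17.1 were used.

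Named TRB were all those in 4 or 3 libraries, the 5 with most nucleotide sequences, the 5 with most cells and the 5 largest paired clonotypes identical in over 1 library. Named segments were the 6 TRBV, 4 TRBJ, 4 TRAV and 4 TRAJ most used by shared TRB, and any TRA segment passing the test. Other TRB were named where they made up a list's members, with values seen. Members and lists were chosen with earlier results of these data known. The set numbers are 2 pairs at most: over 146 segments, deviations of same-numbered libraries correlated at 0.181, a description only.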

Additional observations from a re-analysis of the deposited data

Results flagged for a closer look

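Of the cells with a shared TRB, 353 had their barcode and TRB CDR3 nucleotides also in contigs of another library, which no comparison of the report uses as a measurement. They were 31.0% of the 1138 cells, against 21.5% of the cells with a single-library TRB. The share was 40.9% and 50.0% in Tet2KO NOD 1 and 2 and 13.3% and 55.2% in NOD 1 and 2. Among cells with a single-library TRB it was 35.1%, 40.9%, 7.81% and 32.3% in the same libraries. Cells with a shared TRB also had more TRB UMIs, with a median of 17 against 11. The part of these contigs in the sharing of TRB was not tested beyond leaving the cells out, which kept 80 of the 120 shared TRB.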

How the results depend on the processing

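Over 14 to 18 alternatives each, leaving out libraries included, 6 differences kept their direction: CDR3 beta length (-0.601 to -0.299 amino acids), inserted bases (-2.14 to -0.937), the shares of TRB with 2 or more cells (24.99 to 42.1 percentage points) and with 2 or more nucleotide sequences (5.75 to 11.9), recurrence in the library set aside (11.7 to 26.0) and the genotype difference in the share of TRB (0.206 to 3.30). None of these tests can pass 0.05, so this shows direction only. Leaving out 1 library gave -0.589 to -0.432, -1.66 to -1.45, 31.4 to 40.4, 7.65 to 11.6, 21.0 to 26.0 and 0.669 to 2.73 in that order, the last 0.669 without NOD replicate 1. Recurrence then took TRB in both other libraries against TRB in 1 of them, a different measure from at least 2 of 3. Its values of 21.0 to 26.0 are therefore not comparable in size with the main value of 16.5. The CDR3 alpha difference turned to -0.0231 with a TRB defined by CDR3 amino acids alone and -0.0499 without paired clonotypes in over 1 library, and ran from -0.0689 to 0.216 when 1 library was left out. With CDR3 amino acids alone, the genotype difference in cells was 1.68 and in length -0.00152; length was also -0.000118 with the joined V name merged, added after seeing the data. Leaving out 1 library gave -2.69 to 0.476 and -0.0294 to 0.180 for these 2, and -4.89 to 10.8 for the genotype difference in the share with 2 or more cells. That share turned to -8.45 with TRB defined by nucleotides, -0.688 with TRB of 3 or more UMIs, -9.16 with each cell counted once and -8.68 without cells whose barcode and TRB stood in another library, added after seeing the data. Counting each cell once also turned the differences in sharing within genotypes to 9.86 and within sets to -10.3, while leaving out 1 library gave -7.19 to 1.91 and 2.62 to 12.6.

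The 3 TRA segments passing became 6 with cells of over 1 TRB kept, 8 without barcodes called in another library, 0 without paired clonotypes in over 1 library, 10 with each cell counted once, all lower, 1 with DESeq2, 7 with TMM factors, 6 with no filter on low counts, 9 with no library term, and 1 to 4 when 1 library was left out (1 without Tet2KO NOD replicate 1). TRAV5N-4 stayed higher in all 18 alternatives and passed in 14, with adjusted p from 0.000488 to 0.471, and TRAJ53 in 12 of 18. TRAJ32, which did not pass, turned to -0.0820 on the log2 scale with each cell counted once and -0.0415 without cells whose barcode and TRB stood in another library, and ran from -0.0827 (without Tet2KO NOD replicate 1) to 0.901 when 1 library was left out. The samples share only a set number. Taken as a replicate block, it left the genotype differences at 2.33 and -2.01 percentage points for the shares of TRB and cells (exact sign-flip permutation p = 0.5 each, n = 2). That is the smallest p this test can give with 2 blocks, so it could not change a call. The cause of these changes was not tested. The share of combinations with the same TRA, 51.3%, was recomputed under 13 alternatives added after seeing the data. It moved to 36.5% with CDR3 amino acids alone, 67.2% with TRB defined by nucleotides and 35.8% without paired clonotypes in over 1 library, and ran from 44.8% to 58.1% when 1 library was left out. Not run were the TRA results with cells lacking a TRA, nucleotide forms with TRB defined by nucleotides and, for the genotype shares of TRB and cells and the share with the same TRA, each cell counted once, which have no value. The number of pools and of clonotypes limits precision.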
